A study of Mus musculus with 8 samples.

Results

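Small leucine-rich proteoglycans are secreted matrix proteins built from a horseshoe of leucine-rich repeats, most of which carry chondroitin, dermatan or keratan sulfate chains. The 10 genes described here are Dcn, Bgn and Aspn of class I, Lum, Kera, Fmod, Prelp and Omd of class II, and Epyc and Ogn of class III. They are 10 of the 32108 genes in the deposited table, matched by Ensembl identifier to the symbol, and all 10 symbols were found. The family was chosen by its CPM (counts per 1000000 reads) by day in these same libraries, so the levels of its members are given as a description, with no p for a member. Calls of members from the fit over all genes are counted below beside the share of all genes called, and support nothing. All 10 members passed the filter on low values (at least 1 CPM in at least 2 libraries, 15358 genes), Kera and Epyc only through the days on which they were high.

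The cells were 4F2A mouse embryonic fibroblasts (MEFs), taken from homozygous embryos of 13.5 dpc that carry a doxycycline-inducible cassette of Oct4, Sox2, Klf4 and c-Myc, the reprogramming factors. Every group grew in a medium with serum replacement, 2 µg/mL doxycycline from day 0 and 1000 U/mL LIF, and was harvested on day 2 (D2), day 4 (D4), day 6 (D6) or day 8 (D8), with 2 libraries a day and 8 in all. The titles mark every sample "Ctr", and no group from day 0 or without doxycycline was analysed here, so each comparison is between days of induction. The labels speak of parallel replicates without saying that they were separate cultures or embryos, so the spread behind each p-value may be a technical one. Each library held 19409936 to 20161021 counted reads, and 1 read was worth about 0.05 CPM. The 9 fibroblast markers were all at 1 CPM or more on every day, while the summed level of 5 pluripotency markers (Nanog, Zfp42, Esrrb, Dppa5a and Dppa4) was 0.352 to 1.04 CPM. The label of male embryos was not met in any library: Xist, the RNA of the inactive X chromosome, lay at 702 to 1238 CPM and none of the genes Uty, Eif2s3y, Kdm5d and Ddx3y of the Y chromosome passed 0.333 CPM. Bgn is on the X chromosome.

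In connective tissue these proteins sit along collagen fibrils, set fibril thickness and spacing, and bind growth factors such as TGF-β. Decorin and biglycan are the widespread members in skin, tendon and bone, lumican and keratocan are best known from the corneal stroma, fibromodulin from tendon and cartilage, and epiphycan from growth plate cartilage. Several of the genes stand side by side in the genome, and the levels of these neighbours are described below.

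Across the days, the make-up of the family shifted from mostly Bgn towards Lum and Dcn. Lum went from 11.3 to 844 CPM and Dcn from 204 to 1781 CPM between D2 and D8, and Kera and Epyc went from 1 to 2 reads in the D2 libraries together to clear expression. Bgn was the only member that ended lower than it began, and Fmod had the smallest D8 to D2 difference. The plot of the members by day shows each library.

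**Figure D1:**
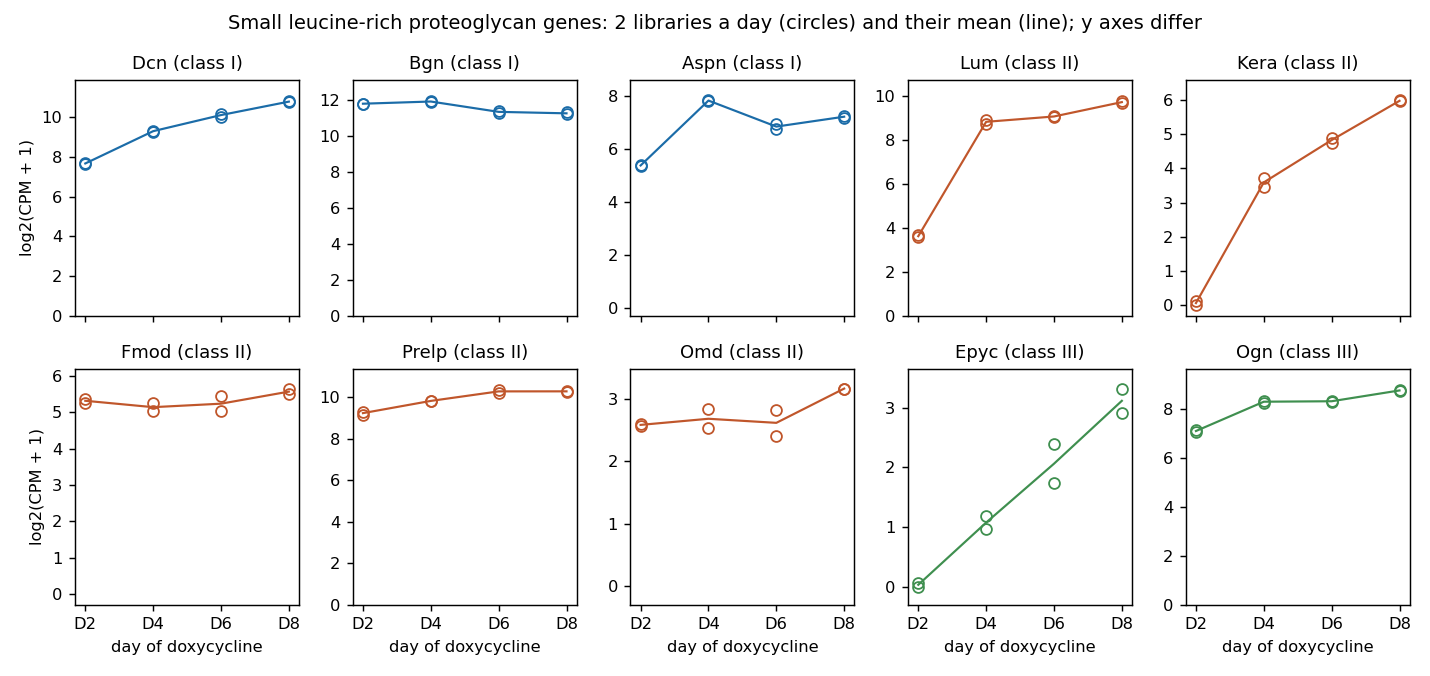
Level of each of the 10 genes as log2(CPM + 1) against the day of doxycycline. Circles are the 2 libraries of a day and the line joins their means; y axes differ between panels. Lum, Kera, Epyc and Dcn are higher at each later day, Aspn is highest on D4, and Bgn is lower on D6 and D8 than on D2 and D4.

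Promoter windows, the 250 bases before a RefSeq transcription start (GRCm38.p6), could be matched for 8 of the 10 members, without Lum and Dcn. The window of Bgn, the member that ended lower, is shown beside those of Aspn, Ogn and Epyc, which ended higher; the 4 were chosen after their letters and levels were seen. Only windows free of annotated exon bases are printed, in the 5′ to 3′ direction of the gene, in lower case. Capitals mark matches on either strand to the TATA box letters TATAAA. They also mark the GC box letters GGGCGG and the letters bound by TEAD factors, CATTCC. The windows are Bgn (chrX:73483351-73483600, plus strand), Aspn (chr13:49544193-49544442, plus strand), Ogn (chr13:49607765-49608014, plus strand) and Epyc at its first start (chr10:97643818-97644067, plus strand).
Bgn: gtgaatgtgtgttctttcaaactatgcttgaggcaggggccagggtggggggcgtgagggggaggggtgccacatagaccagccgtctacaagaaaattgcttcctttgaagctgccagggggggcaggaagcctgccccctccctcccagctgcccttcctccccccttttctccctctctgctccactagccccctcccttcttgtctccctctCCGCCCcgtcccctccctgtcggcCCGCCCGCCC
Aspn: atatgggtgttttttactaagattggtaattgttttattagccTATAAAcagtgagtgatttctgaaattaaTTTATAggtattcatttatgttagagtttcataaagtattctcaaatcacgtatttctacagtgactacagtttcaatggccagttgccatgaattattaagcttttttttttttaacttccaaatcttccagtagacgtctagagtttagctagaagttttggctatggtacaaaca
Ogn: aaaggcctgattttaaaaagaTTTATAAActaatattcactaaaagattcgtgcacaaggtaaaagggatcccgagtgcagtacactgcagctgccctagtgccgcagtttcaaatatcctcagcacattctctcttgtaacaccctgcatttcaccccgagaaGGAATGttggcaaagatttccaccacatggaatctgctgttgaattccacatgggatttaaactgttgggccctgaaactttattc
Epyc: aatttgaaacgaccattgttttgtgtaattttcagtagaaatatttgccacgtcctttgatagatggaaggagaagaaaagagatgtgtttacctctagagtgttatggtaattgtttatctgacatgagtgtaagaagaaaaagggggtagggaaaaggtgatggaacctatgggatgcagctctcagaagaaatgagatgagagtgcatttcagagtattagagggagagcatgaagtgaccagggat
The Bgn window was 64.4% G and C, with 3 GC box matches on the minus strand that begin 34, 10 and 6 bases before the start, the last pair overlapping. The Aspn window was 30% G and C and held TATAAA matches 207 (plus strand) and 178 (minus strand) bases before the start. In the Ogn window (42% G and C) overlapping TATAAA matches began 229 (minus) and 227 (plus) bases before the start, and CATTCC stood 86 bases before it on the minus strand. The printed Epyc window (39.2% G and C) held none of the 7 motifs searched, while the window of a further Epyc start (chr10:97646853-97647102, 31.2% G and C, partly in an exon) held CATTCC 188 bases before that start. The motifs not yet named were the AP-1 motif TGANTCA, the STAT motif TTCNNNGAA, the octamer motif ATGCAAAT of Oct factors and the E-box motif CACGTG. Other windows not printed had 38.4% (Omd), 42.4% (Kera, wholly in an annotated exon), 51.2% (Fmod) and 55.6% (Prelp) G and C, against a median of 52.4% over 32536 promoters. Of all promoters, 12.3% held the TATA box letters, 33.0% the GC box, 12.6% the TEAD, 6.73% the AP-1, 7.04% the STAT, 1.62% the octamer and 6.04% the E-box letters. A match is a string of letters in a window, and binding was not measured.

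Among the class I genes, Dcn encodes decorin, which binds collagen and TGF-β (ENSMUSG00000019929, chromosome 10, 97479609 to 97518143, plus strand, mm10). It stood at 199.8 and 208 CPM on D2, 647 and 619.6 on D4, 1175 and 1053 on D6, and 1809 and 1754 on D8. The days did not overlap, and each was higher than the one before. The mean went from 204 ± 6.01 to 1781 ± 38.7 CPM (SD, n = 2), an 8.73-fold difference, of which 3.10-fold lay between D2 and D4, 1.76-fold between D4 and D6 and 1.60-fold between D6 and D8.

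Bgn encodes biglycan, the close relative of decorin, which in its free form is also a ligand of Toll-like receptors (ENSMUSG00000031375, chromosome X, 73483602 to 73495933, plus strand). Its libraries read 3562 and 3570.0 CPM on D2, 3830.1 and 3931 on D4, 2519 and 2692 on D6, and 2379 and 2544 on D8. The early days stood above the late ones without overlap, while D6 and D8 overlapped. The D8 mean of 2462 ± 117 CPM was 0.690 times the D2 mean of 3566 ± 5.49 CPM (SD, n = 2). All 8 Bgn values held parts of a read, and how the counting gave them is not given in the sources used here. On the log2 scale the D4 to D2 difference of Bgn was 0.12, and it was -0.02 after quantile normalization.

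Aspn encodes asporin, a class I protein that binds collagen and carries a run of aspartates (ENSMUSG00000021388, chromosome 13, 49544443 to 49567565, plus strand). It stood at 41.2 and 39.2 CPM on D2, 223 and 224 on D4, 105 and 120.4 on D6, and 143 and 149.6 on D8. The path was not a steady one: D4 was the highest day, D6 fell back and D8 lay between them, with no overlap between any days. The D4 mean was 5.56-fold the D2 mean, the D6 mean was 0.505 times the D4 mean and the D8 mean 1.29-fold the D6 mean. The fall from D4 to D6 ranked 41st by log2 change among the 15358 tested genes.

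Of class II, Lum encodes lumican, a keratan sulfate proteoglycan needed for corneal clarity and for fibril spacing in skin (ENSMUSG00000036446, chromosome 10, 97565128 to 97572703, plus strand). Lum stood at 10.9 and 11.8 CPM on D2, 479.6 and 427 on D4, 540.1 and 532 on D6, and 819 and 869 on D8. Most of the difference lay in the first interval, where the D4 mean was 40.1-fold the D2 mean. The next means were 1.18-fold and 1.57-fold the ones before, and D8 was 74.6-fold D2. By log2 change Lum ranked 6th among all tested genes for D4 against D2 and 9th for D8 against D2.

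Kera encodes keratocan, a keratan sulfate proteoglycan whose usual site is the corneal keratocyte (ENSMUSG00000019932, chromosome 10, 97606879 to 97613692, plus strand). It was listed at 0 and 0.0996 CPM on D2, then at 10.04 and 12.1 on D4, 28.7 and 25.9 on D6, and 60.7 and 62.2 on D8. The 2 D2 libraries held 2 reads together, against 442 on D4, 1066 on D6 and 2392 on D8. The D8 to D2 ratio was 1237 with an exact 95% interval of 342 to 10217, which covers counting error only. The first D2 library, at 0 reads, allows a level of up to 0.149 CPM (3 reads). Kera was 2.47-fold higher on D6 than D4 and 2.25-fold higher on D8 than D6, the 20th largest log2 rise of that last interval.

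Markers of the corneal stroma were read beside Lum and Kera. The 5 markers Aldh3a1, Aldh1a1, Ptgds, Chst5 and B3gnt7 summed to 162 to 164 CPM on D2, 574 to 643 on D4, 1492 to 1572 on D6 and 1663 to 1741 on D8. Most of that sum was Aldh3a1, a crystallin-like aldehyde dehydrogenase of the cornea, at 159 to 160.5 CPM on D2 and 1635 to 1714 CPM on D8. Aldh1a1 went from 0.896 to 0.918 CPM on D2 to 24.1 to 24.7 CPM on D8, and Chst5 from 0.747 to 1.14 CPM to 2.37 to 2.61 CPM. B3gnt7 went the other way, from 1.02 to 1.12 CPM on D2 to 0.567 to 0.615 CPM on D8. Ptgds, the prostaglandin D synthase, was at most 0.0515 CPM in any library, which is 1 read. The part of such cells in the Lum and Kera levels was not tested, and in bulk RNA a change in the number of expressing cells and a change in RNA per cell cannot be told apart.

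Fmod encodes fibromodulin, which guides collagen cross-linking in tendon (ENSMUSG00000041559, chromosome 1, 134037254 to 134048277, plus strand). Its level was 37.4 and 40.4 CPM on D2, 31.9 and 37.0 on D4, 42.7 and 31.6 on D6, and 44.4 and 48.7 on D8. The D6 libraries spanned both D4 values, and D8 stood above all the others. The D8 mean of 46.6 ± 3.03 CPM was 1.196-fold the D2 mean of 38.9 ± 2.08 CPM (SD, n = 2). Tendon markers gave summed levels of 22.8 to 25.6 CPM on D2 and 30.2 to 31.1 CPM on D8. Within them Scx, the tendon transcription factor, stood at 9.96 to 12.2 CPM on D2 and 3.18 to 3.81 CPM on D8, and Tnmd (tenomodulin) at 7.02 to 7.34 and 15.8 to 17.1 CPM.

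Prelp encodes a heparin-binding class II protein that links basement membrane to the collagen beneath (ENSMUSG00000041577, chromosome 1, 133910304 to 133921414, minus strand). It stood at 572 and 634 CPM on D2, 904 and 909 on D4, 1294 and 1200.0 on D6, and 1239 and 1257 on D8. D2, D4 and D6 were apart, and the D8 values fell inside the D6 range. The D4 mean was 1.503-fold that of D2 and the D6 mean 1.38-fold that of D4. The D6 and D8 means were 1247 ± 66.5 and 1248 ± 12.5 CPM (SD, n = 2). Prelp shares 350 exon bases with Gm15851 on the other strand, which is not among the listed genes. The strandedness of the counting is not given in the sources used here.

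Omd encodes osteomodulin, a keratan sulfate protein of mineralised matrix (ENSMUSG00000048368, chromosome 13, 49582462 to 49592822, plus strand). It was low throughout, at 4.92 and 5.04 CPM on D2, 4.75 and 6.13 on D4, 4.31 and 6.05 on D6, and 7.94 and 7.95 on D8. The first 3 days overlapped and D8 stood above them, 1.53-fold over D6 and 1.60-fold over D2. All 8 Omd values held parts of a read. Bone markers summed to 41.8 to 44.7 CPM on D2 and 35.8 to 36.2 CPM on D8, and genes within the list went opposite ways. Runx2, the bone transcription factor, stood at 39.3 to 41.8 CPM on D2 and 18.1 to 19.1 CPM on D8, and Bglap, the osteocalcin gene, at 1.18 to 1.41 and 12.8 to 14.9 CPM. Dmp1 was at most 0.103 CPM in any library. The part of such cells in the Omd level was not tested.

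Of class III, Epyc encodes epiphycan, a proteoglycan of growth plate cartilage (ENSMUSG00000019936, chromosome 10, 97644068 to 97682454, plus strand). It was listed at 0.0496 and 0 CPM on D2, 0.949 and 1.28 on D4, 4.23 and 2.33 on D6, and 8.96 and 6.51 on D8. The days did not overlap, and the spread within D6 and within D8 was wide for the level. The D2 libraries held 1 read together and the D8 libraries 301, a ratio of 311 with an exact 95% counting interval of 55.4 to 12333. Cartilage markers were read beside it. The 8 markers (Sox9, Acan, Col2a1, Col9a1, Col11a2, Matn1, Matn3 and Comp) summed to 25.0 to 25.2 CPM on D2 and 47.0 to 56.2 on D8. Col2a1 (type II collagen) stood at 6.20 to 7.22 and 24.5 to 33.6 CPM, and Comp at 0.149 to 0.199 and 4.59 to 5.54 CPM. Sox9 overlapped between these days (13.4 to 14.6 and 12.9 to 14.0 CPM), as did Col11a2 (2.48 to 2.69 and 2.20 to 4.28 CPM). Matn3 went the other way, from 0.946 to 0.992 CPM to 0.0513 to 0.206 CPM. Col9a1 and Matn1 stayed under 1 CPM. Acan, the aggrecan gene that defines cartilage, was at most 0.747 CPM in any library and at most 0.154 CPM on D8. The part of such cells in the Epyc level was not tested. Epyc shares 1041 exon bases with Gm10754 on the other strand, which reached 0.67 CPM, and the strandedness of the counting is not given in the sources used here.

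Ogn encodes osteoglycin, also called mimecan, of bone, cornea and vessel wall (ENSMUSG00000021390, chromosome 13, 49608046 to 49624501, plus strand). It stood at 143 and 132 CPM on D2, 308 and 327 on D4, 328 and 315 on D6, and 435 and 439.5 on D8. D4 and D6 overlapped, so the level moved in 2 steps, with a D4 mean 2.31-fold that of D2 and a D8 mean 1.36-fold that of D6. D8 was 3.17-fold D2.

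Levels of different genes were set side by side only per kb of merged exon (CPM per kb). On D2 the order was Bgn at 585, Prelp 167, Ogn 53.7, Dcn 35.0, Aspn 17.1, Fmod 11.8, Lum 4.62 and Omd 2.21 CPM per kb, with Kera and Epyc near 0 and overlapping each other. By D4 Lum had passed Ogn, Dcn, Aspn and Fmod to stand at place 3 with 185 CPM per kb. On D8 the order was Bgn at 404, Prelp 345, Lum 345, Dcn 305, Ogn 170.3, Aspn 62.1, Kera 27.0, Fmod 14.1, Omd 3.53 and Epyc 3.02 CPM per kb. Prelp and Lum could not be told apart on D8, nor Kera and Fmod on D6, since their libraries overlapped. Among 32063 genes with a symbol, Lum moved from place 8047 on D2 to 70 on D8, Dcn from 1522 to 84 and Kera from 19615 to 1993 by CPM per kb. Bgn stood at place 40 on D2 and 58 on D8.

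For Bgn and Dcn the level depends on the gene model. Merged exons of Bgn span 6.099 kb and its longest transcript 2.666 kb, and with the latter its D8 level was 923 CPM per kb and not 404. For Dcn the lengths were 5.838 and 4.692 kb, and with the longest transcript Dcn stood at 379.7 CPM per kb on D8, above Prelp and Lum. Bgn led on all 4 days under both lengths.

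The share of each gene in the summed CPM per kb of the family followed. Bgn made up 66.8% ± 0.762 on D2, 44.9% ± 0.760 on D4, 30.9% ± 1.85 on D6 and 24.0% ± 0.650 on D8 (SD, n = 2). Lum went from 0.527% to 20.5% and Dcn from 3.99% to 18.2% between D2 and D8. Prelp made up 19.0% on D2 and 20.6% on D8, and Ogn 6.13% and 10.1%. With the longest transcript the Bgn share was 81.7% on D2 and 40.6% on D8. In plain CPM the 10 genes together took 0.461% of the library on D2, 0.647% on D4, 0.601% on D6 and 0.704% on D8.

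**Figure D2:**
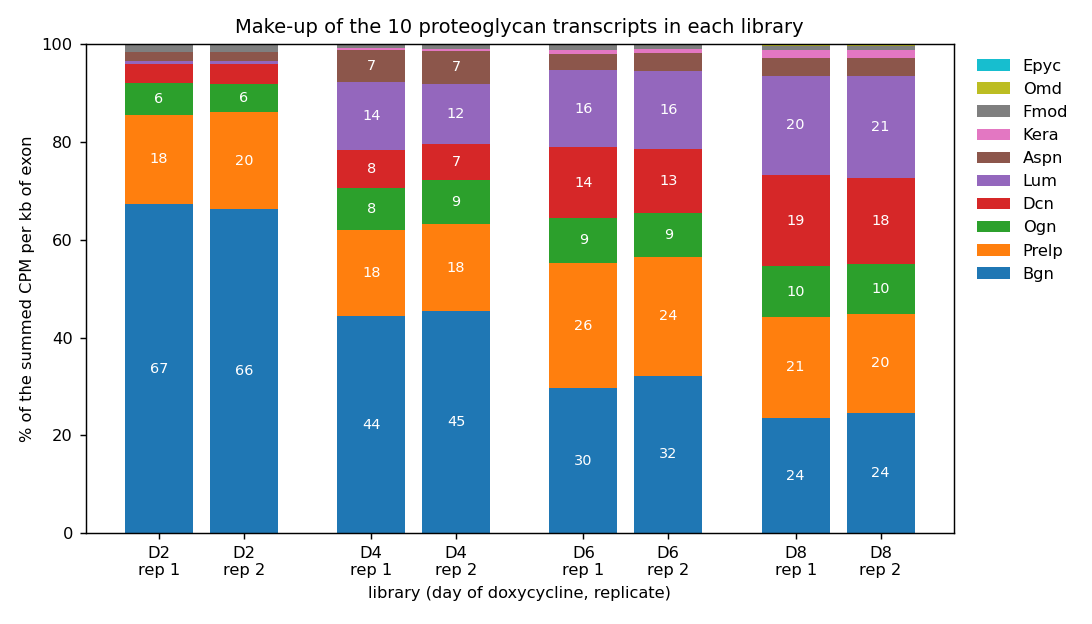
Percent of the summed CPM per kb of exon taken by each of the 10 genes, 1 stacked bar for each library, ordered by day. Bgn shrinks from 66.8% on D2 to 24.0% on D8 (means), while Lum grows from 0.527% to 20.5% and Dcn from 3.99% to 18.2%; the bars of a day look alike.

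The limma fit over all tested genes gives the setting for these numbers (log2(CPM + 1), 4 residual degrees of freedom, Benjamini-Hochberg adjusted p under 0.05). For D4 against D2 it called 7 members higher and 0 lower, where 40.9% of all tested genes were called higher and 21.7% lower. For D6 against D4, 5 members were called higher (Dcn, Lum, Kera, Prelp and Epyc; 25.2% of all genes) and 2 lower (Bgn and Aspn; 12.6%). For D8 against D6, 7 were called higher (all but Bgn, Fmod and Prelp; 4.72%) and 0 lower (4.39%), and for D8 against D2, 8 higher (47.3%) and 1 lower (Bgn; 23.1%). Since the members were selected on these levels, nothing is read from their counts. The median log2 difference of the members was 1.12, 0.17, 0.50 and 1.75 in these 4 contrasts, beside 0.11, 0.07, 0.00 and 0.17 over all tested genes.

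The call of a member changed in a few settings. For D8 against D6, Omd lost its call without D2 replicate 2, either D8 library or D6 replicate 1, Epyc without D6 replicate 2 or D8 replicate 1, and Aspn, Omd and Epyc with no filter on low values. Lum lost its D6 against D4 call without D4 replicate 2 or without the filter. Fmod was called lower for D4 against D2 under median-of-ratios scaling (log2 difference -0.28) and quantile normalization (-0.32). Fmod was called higher for D6 against D4 without D6 replicate 2 (0.31), for D8 against D6 without D6 replicate 1 (0.54) and for D8 against D2 without either D6 library (0.25). Omd lost its D8 against D2 call under quantile normalization (0.16, where it was 0.58). Leaving out either library of D2, D6 or D8 took the calls over all genes in D8 against D6 from 725 higher and 674 lower to between 212 and 470 higher and 186 and 413 lower.

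Scaling also set the balance of calls over all genes. Of the called genes, 65.3% were higher in D4 against D2, 66.7% in D6 against D4 and 67.2% in D8 against D2. Under median-of-ratios scaling these shares were 52.5%, 46.8% and 50.7%, and under quantile normalization 47.1%, 47.7% and 45.1%. Quantile normalization moved the median log2 difference of all genes by -0.14 in D4 against D2 and by -0.22 in D8 against D2, and median-of-ratios scaling by -0.10 and -0.17. The median of the members for D8 against D2 was 1.56 under median-of-ratios scaling and 1.69 under quantile normalization.

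Some members are neighbours in the genome, as was known when the family was proposed. Dcn, Lum, Kera and Epyc lie in that order on the plus strand of chromosome 10 within 203 kb, with 47.0, 34.2 and 30.4 kb between them. All 4 were higher at each later day, with no overlap between the libraries of successive days. The share of all tested genes with such a course was not counted, and the family was chosen by these levels. Nothing about the locus is therefore read from it. Genes outside the family had it too, for example Serping1, at 70.8, 210, 413 and 566 CPM on the 4 days. Their log2 differences for D8 against D2 were 3.12, 6.10, 5.90 and 3.08.

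The genes on either side of that stretch were read from the same fit. Ccer1, the next protein-coding gene, begins 10.6 kb beyond Epyc and was listed at 0 in all 8 libraries, each of which allows up to 0.149 to 0.155 CPM. Beyond it the next gene, Atp2b1, a plasma membrane calcium pump, lies 1232 kb away and stood at 178 ± 2.94 CPM on D2 and 187 ± 9.99 CPM on D8 (SD, n = 2). Its D8 to D2 log2 difference of 0.07 missed the limma threshold (adjusted p = 0.28). On the other side Btg1, an antiproliferative gene 857 kb before Dcn, rose from 54.0 to 81.0 CPM on D4 (log2 change 0.58, limma adjusted p = 1.5e-06). It fell to 60.1 CPM on D6 (log2 change -0.43, limma adjusted p = 9.6e-05) and stood at 51.0 CPM on D8. The D8 to D2 log2 difference of Btg1 was -0.08 and missed the limma threshold (adjusted p = 0.23). Eea1, an endosome tether 1434 kb away, stood at 69.5 CPM on D2 and 80.6 CPM on D8 (log2 change 0.21, limma adjusted p = 0.002), a call that was lost under both other scalings.

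On chromosome 13, Aspn, Omd and Ogn share the plus strand within 80.1 kb, 14.9 and 15.2 kb apart, inside the bounds of Cenpp on the minus strand. These neighbours followed unlike paths: Aspn was highest on D4, Ogn was level between D4 and D6, and Omd overlapped over the first 3 days. Ecm2, a leucine-rich matrix gene of the same wider family 11.7 kb before Aspn, stood at 0.399 and 0.797 CPM on D2, 3.75 and 3.96 on D4, 4.41 and 3.52 on D6, and 4.82 and 6.15 on D8. It rose between D2 and D4 by 1.61 on the log2 scale (limma adjusted p = 8.7e-07), and later intervals missed the threshold. Cenpp, a centromere protein, rose from 2.98 to 6.87 CPM on D4 (log2 change 0.99, limma adjusted p = 9.8e-06) and fell to 4.75 CPM on D6 (log2 change -0.46, adjusted p = 0.0093). It shares 7 exon bases with Aspn and 0 with Omd and Ogn. The D6 call of Cenpp was lost without D6 replicate 1 and with no filter on low values.

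Farther out on that chromosome the genes diverged. Nol8, a nucleolar protein gene 28.6 kb past Ogn, rose from 28.0 to 47.1 CPM over D2 to D8 (log2 change 0.73, limma adjusted p = 8.9e-07). Iars, the isoleucyl tRNA synthetase gene 57.6 kb past Ogn, fell from 256 to 145 CPM (log2 change -0.82, adjusted p = 3.7e-09). The pseudogene-named Tes3-ps, 47.9 kb before Aspn, stood at 14.0 CPM on D2 and 17.2 on D8 (log2 change 0.28, adjusted p = 0.0054), a call that was lost under median-of-ratios scaling, and the difference was -0.02 under quantile normalization.

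On chromosome 1, Prelp (minus strand) and Fmod (plus strand) point away from each other across 116 kb. Optc, the gene of opticin, a class III relative known from the eye, lies 2.31 kb from Prelp on the same strand. It read 2.08 and 2.09 CPM on D2 and 1.70 and 1.18 CPM on D8, with a log2 change of -0.35 (limma adjusted p = 0.037), a call that was lost with a pseudocount of 0.1, with no filter, and without either D2 library or D8 replicate 2. Btg2, 26.9 kb past Fmod, fell from 158 to 87.0 CPM between D2 and D8 (log2 change -0.86, adjusted p = 1.1e-08). Atp2b4, 109 kb beyond the other end, fell from 173 to 84.9 CPM (log2 change -1.02, adjusted p = 4.2e-09). Chit1, 63.0 kb past Fmod, stood at 1.72 CPM on D2 and 2.93 CPM on D8 (log2 change 0.53, adjusted p = 0.0075), a call that was lost under quantile normalization and without D2 replicate 1 or D8 replicate 1.

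**Figure D3:**
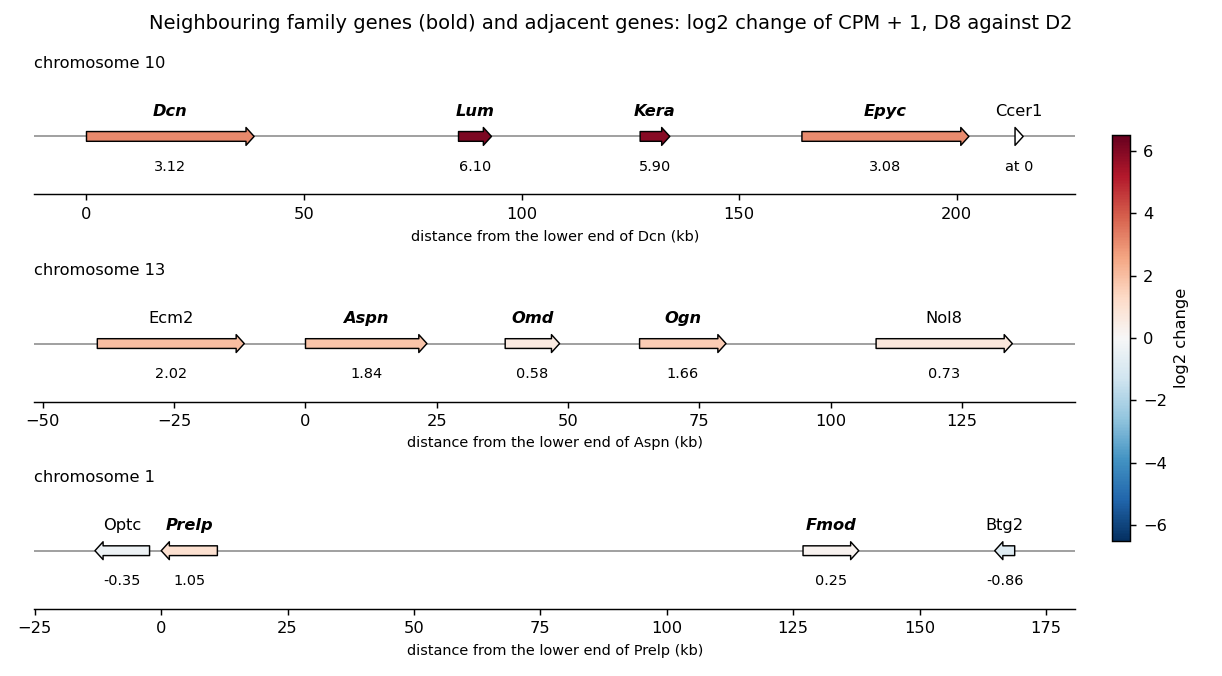
Family genes that neighbour each other (bold) and the genes next to them, drawn to scale as arrows in their direction of transcription against the distance in kb from the lower end of the leftmost family gene. Colour and the number under each arrow give the log2 change of CPM + 1 from D2 to D8. The 4 genes on chromosome 10 range from 3.08 to 6.10, where the values of Kera and Epyc depend on the added 1. Ccer1 beside them is listed at 0, and Btg2 on chromosome 1 is at -0.86.

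For the 8 members with at least 10 CPM in a library, the genes with the most alike course were sought among 11190 others of that level. Likeness was the root mean square difference of centred log2(CPM + 1) over the 8 libraries, which share their days, so it is a description. Dcn was closest to Serping1, the C1 inhibitor gene (0.0947, from 70.8 CPM on D2 to 566 on D8), then Tspan32 and Dpep1. Kera was closest to the flavin monooxygenase gene Fmo1 (0.254), the complement gene C3 (0.260, from 2.19 to 115 CPM) and the haptoglobin gene Hp (0.305). Lum was closest to Steap4 (0.351, from 2.76 to 136 CPM), Atp2a3 (0.363) and Iigp1 (0.485), and Kera was its 11th gene at 0.660. Their neighbour Dcn was farther off, at place 205 for Lum and 157 for Kera. For Dcn, Kera came at place 4298 (1.06) and Lum at place 10142 (1.40), though Pearson's r was 0.996 and 0.941.

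Prelp was nearest to Dmxl2 (0.0315), Agtrap and E130309D02Rik, and Ogn to the cathepsin K gene Ctsk (0.0826, from 54.3 to 156 CPM), Eif4e3 and Adamts2. Aspn was nearest to Rerg (0.196), Fap (0.197) and Cpxm1 (0.201), which were also highest on D4, for example Fap, the fibroblast activation protein gene, at 5.49, 31.2, 22.3 and 23.8 CPM on the 4 days. Bgn was nearest to H2afy2, Slit2 and Dlg3, and Fmod to Arhgap29, Pyurf and Plcb4. No member was among the 3 genes nearest to another member.

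Genes outside the 10 members were read from 7 companion lists of 112 genes in all, with limma's adjusted p over all tested genes. In all 7 lists more genes rose than fell between D2 and D4 and more fell than rose between D4 and D6. The counts were level in some settings for 2 small lists, the other family genes in the first interval and keratan sulfate synthesis in the second. Over all tested genes, 40.9% rose and 21.7% fell between D2 and D4, so there too more rose than fell. That lead depended on scaling: 65.3% of all calls were higher, and 47.1% under quantile normalization. Between D4 and D6, 25.2% of all tested genes rose and 12.6% fell, and between D6 and D8 4.72% and 4.39%. On D8, 47.3% were higher and 23.1% lower than on D2. The list counts below are to be read beside these shares, which are also drawn in the plot of the lists.

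Of 9 other genes of the wider leucine-rich proteoglycan family, 6 were tested; Chad, Nyx and Nepn stayed under 1 CPM. Between D2 and D4, 3 rose and 1 fell, and by D8 3 stood higher and 2 lower than on D2. The lower count was 1 with a pseudocount of 0.1, with no filter, and without either D2 library or D8 replicate 2. Podn, the gene of podocan, rose from 18.7 ± 0.365 to 52.8 ± 6.05 CPM on D4 (log2 change 1.44, limma adjusted p = 6.5e-08) and fell to 33.5 ± 4.90 CPM on D6 (SD, n = 2; log2 change -0.65, adjusted p = 0.00036). Tsku, the gene of tsukushi, a secreted signalling modulator, fell at every step, from 170.1 CPM on D2 to 97.2, 77.7 and 64.5 CPM (D8 against D2 log2 change -1.39, adjusted p = 5.2e-11). The D8 against D6 call of Tsku was lost without D6 replicate 2 or D8 replicate 1.

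Genes that serve to make the linker and the chondroitin and dermatan sulfate chains of core proteins formed a second list of 25. They encode enzymes, apart from Slc35d1, which encodes a nucleotide sugar transporter. Of these 15 rose and 2 fell between D2 and D4, 4 rose and 13 fell between D4 and D6, and 0 rose and 4 fell between D6 and D8. On D8, 9 were higher and 9 lower than on D2. The 15 rises of the first step were 9 under median-of-ratios scaling and 8 under quantile normalization. Chst3, a chondroitin 6-sulfotransferase, rose from 3.28 to 14.0 CPM on D4 (log2 change 1.81, limma adjusted p = 2.2e-09). Chst13, a 4-sulfotransferase, went from 0.695 ± 0.279 to 6.71 ± 0.351 CPM by D8 (SD, n = 2; log2 change 2.19, adjusted p = 6.1e-09). In the other direction Chst11, another 4-sulfotransferase, fell from 75.0 to 36.5 CPM by D8 (log2 change -1.02, adjusted p = 6.3e-08). Chsy1, a chain polymerase, fell from 102 CPM on D4 to 60.6 on D6 (log2 change -0.75, adjusted p = 2.3e-06).

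Keratan sulfate is the chain of lumican, keratocan and fibromodulin, and all 9 of its listed enzymes were tested. Between D2 and D4, 6 rose and 2 fell (1 in 8 of the other settings), and on D8 4 were higher and 4 lower than on D2. The 4 higher were 2 under each other scaling, and the 4 lower were 2 without either D2 library or D8 replicate 1. Chst1, a keratan sulfate sulfotransferase, fell from 23.2 ± 0.208 CPM on D2 to 7.55 ± 0.261 on D4 (SD, n = 2; log2 change -1.50, limma adjusted p = 3.8e-08) and was 6.01 CPM on D8. Chst5, the corneal sulfotransferase, rose from 0.944 to 2.49 CPM by D8 (log2 change 0.85, adjusted p = 5.3e-05). B3gnt7, which extends the chain, fell from 1.77 CPM on D4 to 0.909 on D6 (log2 change -0.53, adjusted p = 0.0084), a call that was lost without D4 replicate 2 or D6 replicate 1.

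Collagens are the partners of most members. Of 14 fibril collagens and associated collagens, 10 rose and 1 fell between D2 and D4, and 1 rose and 11 fell between D4 and D6. Col3a1, a chain of type III collagen, rose from 2047 ± 23.1 to 10533 ± 19.7 CPM on D4 (SD, n = 2; log2 change 2.36, limma adjusted p = 1.5e-10). Col14a1, a collagen on the fibril surface, rose from 57.3 to 175 CPM (log2 change 1.59, adjusted p = 3e-09). Col5a3 rose from 125 to 291 CPM on D4 and fell to 159.97 CPM on D6 (log2 change -0.86, adjusted p = 4.4e-08). Col2a1 was the collagen that rose between D4 and D6, from 8.51 to 18.7 CPM (log2 change 1.05, adjusted p = 6e-05).

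Ligands and receptors that these proteins bind were tested for 17 of 18 genes. Between D2 and D4, 10 rose and 4 fell; between D4 and D6, 2 rose and 7 fell; and on D8, 8 were higher and 8 lower than on D2. Tgfbr3, the betaglycan co-receptor of TGF-β, rose from 24.7 ± 0.669 to 99.5 ± 3.61 CPM on D4 (SD, n = 2; log2 change 1.97, limma adjusted p = 3.7e-11). P2rx7, an ATP-gated channel that works with biglycan in inflammation, rose from 1.86 to 12.3 CPM by D8 (log2 change 2.21, adjusted p = 4.4e-09). Tgfb3, a ligand bound by decorin, fell from 238 CPM on D4 to 129 on D6 (log2 change -0.88, adjusted p = 1.7e-07). Kdr, a VEGF receptor, fell from 4.32 to 1.00 CPM by D8 (log2 change -1.42, adjusted p = 2.6e-06).

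Proteases that process or cut these proteins, listed with Pcolce, a protease enhancer and not a protease, were tested for 13 of 14 genes. Of these genes 10 rose and 1 fell between D2 and D4 (2 fell in 8 of the other settings). Between D4 and D6, 1 rose and 7 fell, with Pcolce at 1160 CPM on D4 and 1513 CPM on D6. On D8, 8 were higher and 4 lower than on D2. Mmp3, stromelysin, rose from 9.98 ± 3.07 to 413 ± 46.0 CPM on D4 (SD, n = 2; log2 change 5.26, limma adjusted p = 5e-12) and stood at 257 CPM on D8. Mmp2, a gelatinase, rose from 285 to 898 CPM on D4 (log2 change 1.65, adjusted p = 1.9e-11) and was 895 CPM on D8. Htra1, a serine protease that cuts several members, fell from 123 to 54.3 CPM by D8 (log2 change -1.17, adjusted p = 8.2e-09).

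Other proteoglycan core proteins made the last list, with 19 of 23 genes tested. Between D2 and D4, 10 rose and 5 fell, between D4 and D6, 4 rose and 11 fell, and on D8 8 were higher and 9 lower than on D2. Srgn, the intracellular proteoglycan serglycin, rose from 4.62 ± 0.646 CPM on D2 to 45.8 ± 0.753 on D4 and 121 ± 29.0 on D8 (SD, n = 2; D8 against D2 log2 change 4.43, limma adjusted p = 5e-12). Vcan, the large matrix proteoglycan versican, fell from 957 CPM on D4 to 635 on D6 (log2 change -0.59, adjusted p = 6.2e-06). Cspg4, the NG2 proteoglycan of pericytes, fell from 178 to 64.9 CPM by D8 (log2 change -1.44, adjusted p = 3.5e-11).

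In the last interval, D8 against D6, 4 of the 112 listed genes (untested ones included) were called higher and 19 lower. Over all tested genes 4.72% were called higher and 4.39% lower in that interval. With no filter on low values the counts were 1 and 6. Without D6 replicate 2 they were 1 and 6, without D8 replicate 1 they were 1 and 5, without D6 replicate 1 they were 3 and 11, and without D8 replicate 2 they were 2 and 14.

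**Figure D4:**
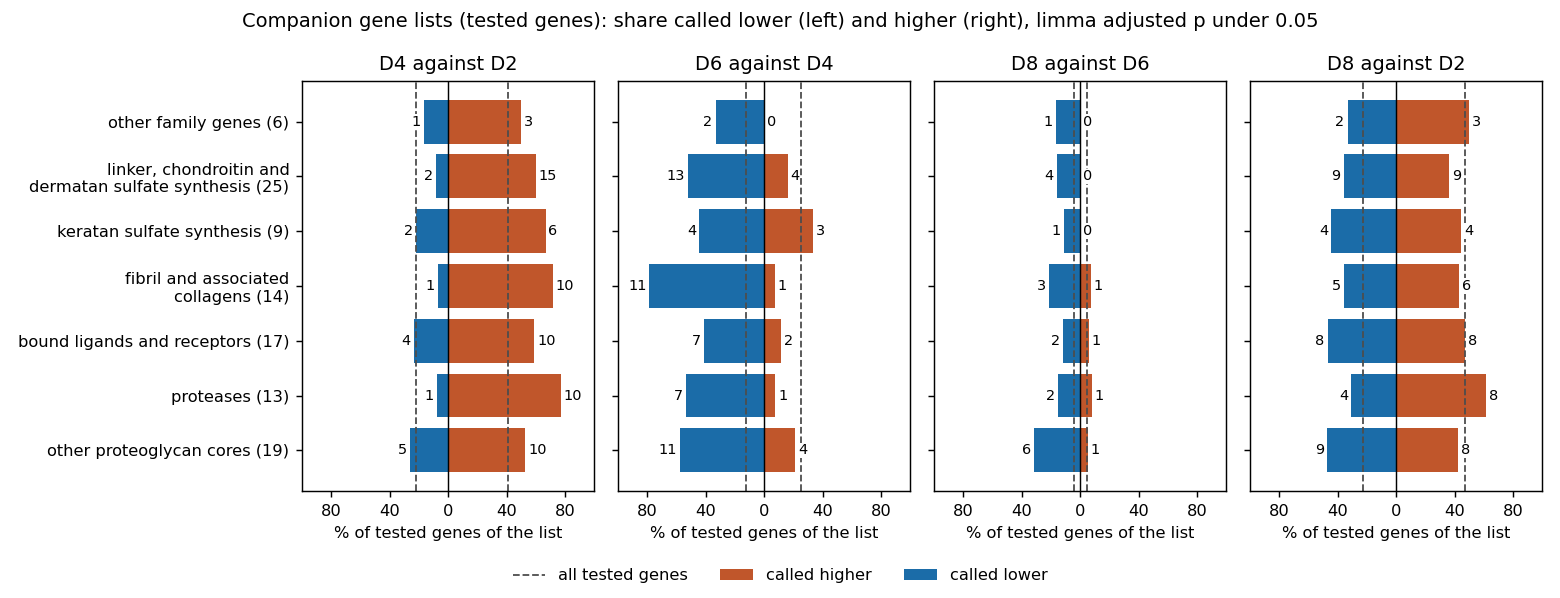
Percent of the tested genes of each of 7 companion lists called higher (right, orange) or lower (left, blue) by limma in each contrast, with the number of genes beside each bar and the number tested after each list's name. Dashed lines mark the percent of all tested genes called; 10 of 14 collagens were called higher for D4 against D2 and 11 lower for D6 against D4.

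Markers of other cell types were read beside the members as sums over each list. Smooth muscle markers (Acta2, Tagln, Cnn1 and Myh11) summed to 2940 to 3052 CPM on D2, 610 to 626 on D4 and 763 to 918 on D8. Epithelial markers summed to 6.998 to 9.19 CPM on D2 and 159 to 169 on D8, mostly Krt8 and Cdh1, with Epcam at most 0.974 CPM. Endothelial markers summed to 68.9 to 71.4 CPM on D2 and 163 to 165 on D8, nearly all Tek, with Emcn at most 0.0992 CPM. Macrophage markers stayed between 57.0 and 83.4 CPM in all libraries. The part of these cells in the members' levels was not tested.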

How the data were processed

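Total RNA of 8 libraries was sequenced on a BGISEQ-500, per the labels. Trimmomatic 0.39, featureCounts and mm10 are named in the submitters' processing notes; the aligner, annotation and strand setting are not stated there. Values in the table deposited by the authors are CPM, scaled to 1000000 per library, although its name speaks of TPM. Whole reads made up 52.8% to 54.3% of nonzero values, so no count test was run. Of 80 member values 57 were whole reads, at a looser tolerance of 0.02 reads. All columns matched a labelled library (0 did not). Identifiers were given symbols and mm10 exons from GENCODE M21 (32063 matched, 45 did not), and promoters came from RefSeq.

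limma 3.58.1 in R 4.3.3 was fitted on log2(CPM + 1) over all 8 libraries with a coefficient for each day and an intensity trend, for genes that reached 1 CPM in 2 or more libraries. The two-sided moderated p was adjusted (Benjamini-Hochberg, 15358 genes) and a gene called under 0.05. The fit was tested on simulated data. Changes are differences of mean log2(CPM + 1), which understate low genes, and folds are ratios of mean CPM. The members, lists and tests were chosen with earlier results of these data known. Named genes are all members, up to 4 called genes with the largest change for each list and contrast (some are not printed), the flanking genes and the 3 nearest genes of each member. Intervals and floors (3 reads) cover counting error only. The alternatives were a pseudocount of 0.1, no filter, median-of-ratios scaling, quantile normalization, a replicate block, leaving out each library, the longest transcript as gene length, and Pearson's r for likeness.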

Additional observations from a re-analysis of the deposited data

How the results depend on the processing

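The counts over all genes moved most with scaling and in the last interval. Genes called lower for D6 against D4 numbered 1928, and 2982 under median-of-ratios scaling and 2942 under quantile normalization. For D8 against D2 the counts were 7258 higher and 3549 lower, and 4819 and 5876 under quantile normalization. For D8 against D6 they were 725 and 674, and 210 and 134 with no filter on low values. Leaving out each library in turn gave 212 to 907 higher and 186 to 836 lower for D8 against D6. Members called lower for D4 against D2 numbered 0, and 1 (Fmod) under median-of-ratios scaling and 1 (Fmod) under quantile normalization. Members called higher for D8 against D6 numbered 7, and 4 with no filter. Companion genes called for D8 against D6 numbered 4 higher and 19 lower, 1 and 6 with no filter, and 1 to 4 higher and 5 to 20 lower with each library left out. Tes3-ps changed sign for D8 against D2 under quantile normalization, to -0.0193. Of the named list and flanking genes, 17 of 32 lost a call for D8 against D6 in at least 1 setting, and 3 of 39, 6 of 38 and 5 of 38 did so for D4 against D2, D6 against D4 and D8 against D2. With a pseudocount of 0.1 the D8 to D2 log2 difference of Kera was 8.77, where it was 5.90. Pearson's r changed the set of 3 nearest genes of all 8 members. No strong pairing by replicate number was seen: deviations of same-numbered libraries correlated at -0.10 to 0.21 over genes. With 2 libraries a day these values cannot exclude a weak pairing. With the replicate block 6357 genes were called higher and 3396 lower for D4 against D2 (6276 and 3330 without it), and the members' counts were the same in all 4 contrasts. With 2 libraries a day, differences within the spread of Fmod or Omd were not detectable here.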
